A study of Homo sapiens with 4 samples.

Results

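The regions described here were m6A peaks of H1975 cells that were listed with a control shRNA and had no listed counterpart with METTL3 knocked down. H1975 is an established human lung adenocarcinoma (LUAD) cell line. The peaks were selected on 2 measured values, a pileup of at least 50 in the control library and no overlap of 1 bp or more with any peak of the knockdown library. Of the 9441 peaks listed with the control shRNA (NC-sh), 4990 reached this pileup, and 505 of these had no METTL3-sh peak (10.1%). These 505 are called NC-sh-only peaks here, and the other 4485 are called shared peaks. Both lists together held 21693 peaks.

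The series compared H1975 cells carrying NC-sh with cells carrying a METTL3 shRNA (METTL3-sh), both grown in high-glucose DMEM, with lentiviral interference for 48 h. The labels list 1 Input and 1 MeRIP library for each condition, 4 in total, although the series' design text speaks of 3 replicates, and a single peak list was analysed per MeRIP library. Peak lists hold no expression values, so the METTL3 RNA level in these libraries was not analysed here. The target sequence of the METTL3 shRNA is shown because it is the agent that separates the conditions.

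h-sh-METTL3: gctgcacttcagacgaattat

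N6-methyladenosine (m6A) is placed on nascent RNA by a complex whose catalytic subunit is METTL3, and it is commonly found in long internal exons and near stop codons of mRNAs. Reader proteins with a YTH domain bind the mark and alter the decay or translation of the transcript. In MeRIP-seq, fragmented RNA is pulled down with an m6A antibody and sequenced beside Input RNA that was not pulled down, and a peak is a stretch where pulled-down reads exceed the number expected locally.

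Each peak is described by 4 values. Pileup is the height of the MeRIP reads over the summit after scaling of the library, and 1 read was worth 0.327 with NC-sh and 0.364 with METTL3-sh, so that a pileup of 50 took at least 153 reads in NC-sh. Fold enrichment is pileup over the local expectation, with 1 added to both. The −log10 q is the peak caller's own measure of each peak within its library, and length is given in bp. Total library depth is unknown, and summits were covered by a median of 169 reads over the whole NC-sh list and 132 over the METTL3-sh list. In both lists the lowest fold enrichment was 6, and all 21693 peak names begin with H1299, another lung cancer line, whereas the sample labels give H1975. With 1 library per condition there was no replicate check and no test between conditions, and the intervals below are 95% intervals for counting error only (Wilson for shares, order statistics for medians).

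Pileup and overlap chose the peaks, so the following values are a description. The absence of a METTL3-sh peak was less frequent among well covered peaks (10.1% of 4990) than among NC-sh peaks with a pileup under 50, of which 1742 of 4451 had none (39.1%). In the opposite direction, 1059 of the 5989 METTL3-sh peaks with a pileup of at least 50 had no NC-sh peak (17.7%). The libraries therefore both held well covered peaks that the other list did not have. The METTL3-sh list was the longer one, with 12252 peaks against 9441. A pileup of 50 also took fewer reads with METTL3-sh, at least 138 against 153. Whether list size or this lower read minimum bears on 10.1% against 17.7% was not tested.

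The NC-sh-only peaks lay in the lower part of the range of enrichment. Fold enrichment among them had a median of 7.65 (7.41 to 7.91), its quartiles were 6.63 and 9.37 and its highest value was 34.2. The shared peaks had a median of 14.2 (13.95 to 14.57), with quartiles of 9.63 and 22.8. A fold enrichment under 7, close to the lowest value in the lists, was found in 179 NC-sh-only peaks (35.4%, 31.4 to 39.7%) and in 325 shared peaks (7.25%, 6.52 to 8.04%). At least 12 was reached by 66 NC-sh-only peaks (13.1%) and 2728 shared peaks (60.8%), and at least 20 by 4 and 1408.

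**Figure D1:**
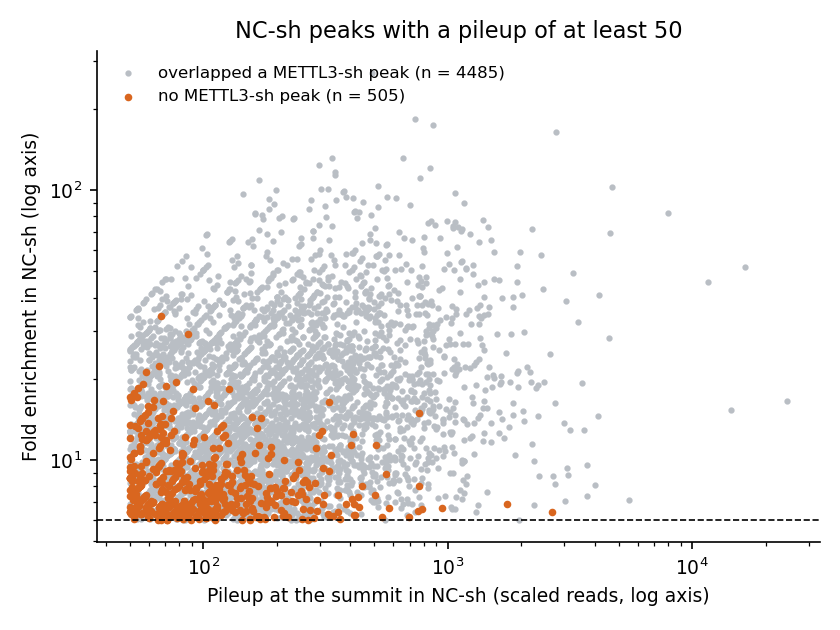
Fold enrichment (y axis, log scale) against pileup at the summit (x axis, scaled reads, log scale) of the 4990 NC-sh peaks with a pileup of at least 50, with 1 point per peak and a dashed line at a fold enrichment of 6. The 505 NC-sh-only peaks (orange) are gathered just above the line, with a median of 7.65, below most of the 4485 shared peaks (grey).

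Read support was lower too, but reads at the summit are the pileup in another unit. Pileup was used for the selection, with the same minimum in both sets, so this is a description. The summits of the NC-sh-only peaks held 153 to 8148 reads with a median of 273 (254 to 299), and those of the shared peaks held a median of 477 (459 to 492). Still, 107 NC-sh-only peaks had more reads than the median shared peak. Their −log10 q ran from 22.4 to 1178.5 with a median of 49.1, against 120.6 in shared peaks.

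The share of NC-sh peaks without a METTL3-sh counterpart fell in steps along the scale of fold enrichment. It was 35.5% (31.5 to 39.8%) at a fold enrichment of 6 to 7, 25.7% at 7 to 8 and 16.0% at 8 to 10. It then dropped to 6.96% at 10 to 12, 4.49% at 12 to 20 and 0.283% (4 of 1412 peaks) at 20 or more. Along pileup the decline was shallower, from 18.2% (16.0 to 20.7%) at 50 to 75 to 2.59% (1.72 to 3.89%) at 400 or more. Among peaks with a fold enrichment under 7 there was no steady decline along pileup, with 39.7% (32.3 to 47.7%), 46.2%, 33.1%, 21.95% (14.4 to 32.1%) and 36.4% (12 of 33 peaks, 22.2 to 53.4%) unmatched from the lowest to the highest of the 5 classes. Among peaks with at least 12, the unmatched share was 8.66% at a pileup of 50 to 75 and 0.314% (2 of 636) at 400 or more.

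**Figure D2:**
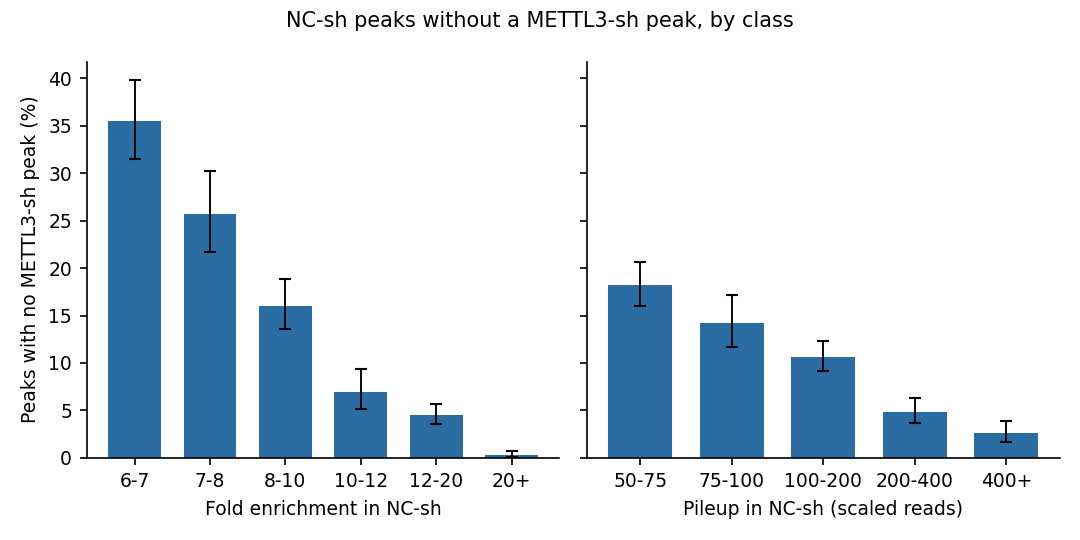
Share of NC-sh peaks with a pileup of at least 50 that had no METTL3-sh peak (y axis, %), by class of fold enrichment (left) and of pileup in scaled reads (right), with bars for the share and error bars for 95% Wilson intervals. The share falls from 35.5% to 0.283% from the lowest to the highest class of fold enrichment and from 18.2% to 2.59% across the classes of pileup.

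The NC-sh-only peaks were short. Their median length was 389 bp (373 to 414), with quartiles of 306 and 563 bp and a range of 200 to 1639 bp, against a median of 555 bp (544 to 566) in shared peaks. A length of at least 1000 bp was found in 28 of them (5.54%) and in 686 shared peaks (15.3%). Median length rose with pileup among shared peaks, so lengths were also compared within classes of pileup. Fold enrichment was not matched in these classes, with medians of 7.53 and 13.1 at a pileup of 100 to 200, for example. Whether length differed apart from enrichment was not tested. At a pileup of 50 to 75 the medians were 355 bp (334 to 381) and 428.5 bp (409 to 450), at 75 to 100 they were 414 bp (373 to 492) and 472 bp (449 to 492) with overlapping intervals, and at 100 to 200 they were 386 bp (349 to 454) and 547 bp (525 to 571). At 200 to 400 they were 457.5 bp (377 to 583) and 620 bp (601 to 642). At 400 or more they were 673.5 bp (463 to 878, 22 peaks) and 705 bp (673 to 751), where the intervals overlapped. The median position of the summit was near the middle of the peak in both sets, at 49.6% and 49.4% of the length. Single summits ranged from 9.05 to 87.8% of the length in NC-sh-only peaks and from 6.40 to 95.2% in shared peaks.

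The local expectation, the number of scaled reads that the peak caller expected at the summit, was higher under the NC-sh-only peaks than under shared peaks of similar pileup. The median was 6 scaled reads against 4 at a pileup of 50 to 75 and 11 against 6 at 75 to 100. It was 16.0 against 9.60 at 100 to 200, 32.6 against 16.4 at 200 to 400 and 65.5 against 35.0 at 400 or more. At a given pileup, fold enrichment and expectation are 2 views of 1 value, so this restates the lower enrichment and is no separate result.

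The largest NC-sh-only peaks combined many reads with low enrichment. The highest −log10 q, 1178.5, belonged to chr14:21968515-21969437, a peak of 923 bp with 8148 reads at the summit. Its expectation of 413 was the highest of the 505 peaks, so that its fold enrichment was only 6.44. The nearest METTL3-sh peak was 68524 bp away. METTL3, the gene the shRNA targets, is itself on chromosome 14, and whether this peak lies in its transcript was not tested because no hg19 annotation was used. For all 505 peaks, less RNA of a transcript, less m6A on it and a METTL3-sh peak left off the list without either cannot be told apart here.

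Next came chr5:137089191-137089813, with 5352 reads, a −log10 q of 818.5 and a fold enrichment of 6.90. Its nearest METTL3-sh peak lay 128849 bp away and had 49 reads. The peak at chr2:85771578-85772379 had 2889 reads, an expectation of 141 and a fold enrichment of 6.67. These 3 peaks had the most reads of all 505 and lay within 1 unit of the lowest fold enrichment in the list.

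An exception was chr18:11851396-11852272, which ranked next by −log10 q after the chr5 peak (591.8) and had 2334 reads and a fold enrichment of 15.0 over an expectation of 50. The closest METTL3-sh peak was 31919 bp away, overlapped a different NC-sh peak and had 430 reads. Of the other peaks among the 10 highest, chr22:25424622-25425275 had a fold enrichment of 11.4 with 1560 reads, and chr12:110811511-110812214 had 8.86 with 1703 reads. The peak at chr17:79674007-79674611 had 8.04 with 2330 reads. The remaining 3, at chr4:1980519-1981211, chr19:13246400-13246998 and chr6:30652517-30653708, had 2394, 2302 and 2131 reads and fold enrichments of 6.57, 6.49 and 6.18. Thus 6 of the 10 were below 7.

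The peaks with the highest fold enrichment were small instead. At chr17:15341166-15341540 it was 34.2, with 206 reads over an expectation of 1. At chr17:44416861-44417182 it was 29.4 with 266 reads, and at chr9:127572128-127572550 it was 22.3 with 201 reads. The next ones, chr8:145946819-145947647 and chr3:48731158-48731470, had 21.2 with 178 reads and 19.6 with 236 reads. The METTL3-sh peaks nearest to these 5 lay 22160 to 212882 bp away. Among all 66 NC-sh-only peaks with a fold enrichment of at least 12, reads at the summit had a median of 205 and a highest value of 2334.

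The longest peaks were of moderate strength. They were chr9:139368601-139370239 with 1639 bp and 1261 reads, chr2:86831014-86832623 with 1610 bp and 255 reads, and chr4:5822267-5823827 with 1561 bp and 648 reads. They were followed by chr18:65179995-65181542 with 1548 bp and 552 reads and chr21:46784639-46786178 with 1540 bp and 177 reads. Their fold enrichments lay between 6.90 and 8.42. A METTL3-sh peak began 259 bp beyond the end of the longest one, where it had 1406 bp, 2180 reads and a fold enrichment of 6.96, and another ended 204 bp before the chr18 peak.

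The distance to the nearest METTL3-sh peak was measured between peak edges. It ranged from 127 to 1419010 bp with a median of 16539 bp (13266 to 22160). Within 1 kb there was a METTL3-sh peak for 76 NC-sh-only peaks (15.0%, 12.2 to 18.4%), within 5 kb for 158 (31.3%, 27.4 to 35.5%) and within 100 kb for 426 (84.4%). Most NC-sh-only peaks thus had no close METTL3-sh peak. For comparison, a further METTL3-sh peak that did not overlap was found within 1 kb of 883 shared peaks (19.7%, 18.6 to 20.9%) and within 5 kb of 1664 (37.1%, 35.7 to 38.5%). Within 100 kb the shares were 84.4% (80.9 to 87.3%) and 84.6% (83.6 to 85.7%).

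**Figure D3:**
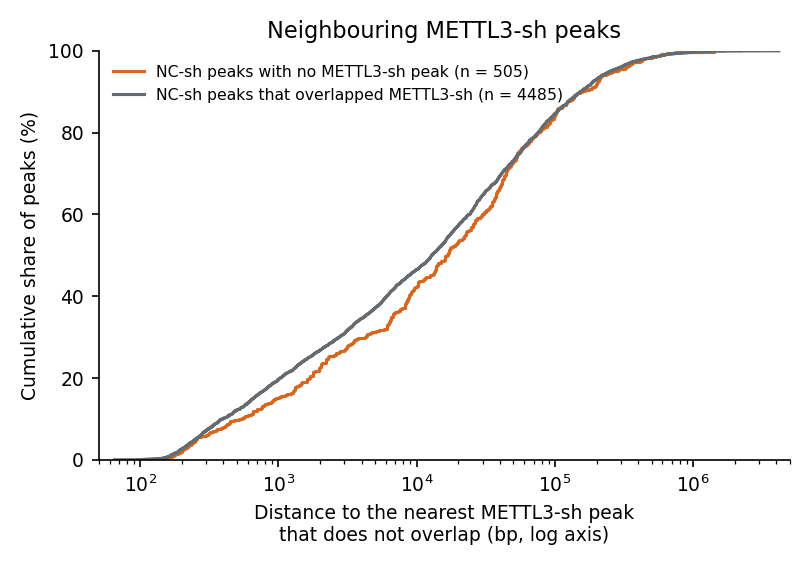
Cumulative share of peaks (y axis, %) by distance to the nearest METTL3-sh peak that does not overlap (x axis, bp, log scale), for the 505 NC-sh-only peaks (orange) and the 4485 shared peaks (grey) with a pileup of at least 50. At 1 kb the curves stand at 15.0% and 19.7%, and at 100 kb they meet at 84.4% and 84.6%.

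The 76 close METTL3-sh neighbours were mostly the larger peaks of their pairs. They had a median of 409.5 reads (283 to 565), 608.5 bp (469 to 784) and a fold enrichment of 11.4 (9.02 to 13.3), whereas the NC-sh-only peaks beside them had 251 reads (207 to 294), 444 bp (368 to 502) and 7.74 (7.203 to 8.093). Fold enrichment was higher in the METTL3-sh neighbour in 59 of 76 pairs (77.6%), and reads were more numerous in 48. These values come from different positions and libraries. The NC-sh-only peaks were low in fold enrichment as a set, with a median of 7.65, so a stronger neighbour is no separate result. The neighbour lay at the lower genome position in 36 of 76 pairs, and the interval of this share included 50% (47.4%, 36.5 to 58.5%). In 58 of the 76 the neighbour overlapped another NC-sh peak, and the NC-sh-only peak was then an additional peak beside a shared one.

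In the other 18 pairs the METTL3-sh neighbour had no NC-sh counterpart either, and in 13 of these it also had a pileup of at least 50. At such places each library listed a well covered peak that the other did not list, less than 1 kb apart. The closest of the 13 was at chr3:170078101-170079062, where an NC-sh-only peak with 341 reads and a fold enrichment of 7.04 lay 201 bp from a METTL3-sh peak with 156 reads and 7.215 (chr3:170077607-170077899). At chr12:1602292-1602659 the NC-sh-only peak had 529 reads and a fold enrichment of 14.4, and the METTL3-sh peak 400 bp away had 802 reads and 7.14. At chr19:47260346-47261059 the order was the opposite, as the NC-sh-only peak had 178 reads and 9.88 while the METTL3-sh peak 209 bp away had 500 reads and 12.2. These 3 examples were chosen after their values were seen.

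At the other extreme stood the peak farthest from any METTL3-sh peak, chr11:132205138-132206050. It had 204 reads, a length of 913 bp and a fold enrichment of 13.03, and the nearest METTL3-sh peak was 1419010 bp away. The next 4, at chr12:116398684-116398954, chr8:120744070-120744300, chr2:18736195-18736904 and chr7:19737880-19738400, were 756154, 745095, 642281 and 581271 bp from a METTL3-sh peak. They had 167, 343, 255 and 209 reads, and fold enrichments of 7.14, 6.58, 8.62 and 16.5. NC-sh peaks were sparse there too, as the nearest other NC-sh peak of these 5 was 578756 to 770605 bp away.

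Where an NC-sh-only peak had a shared NC-sh peak as its nearest neighbour within 5 kb, fold enrichment of that shared peak was compared between libraries. Such a neighbour was found for 115 NC-sh-only peaks (22.8%), with 115 different shared peaks of any pileup. Whether both peaks of a pair lay in the same transcript was not analysed. Fold enrichment of the neighbouring shared peak was lower in METTL3-sh in 50 of 115 (43.5%), and the log2 difference, taken as METTL3-sh minus NC-sh, had a median of 0.04 (−0.04 to 0.20) and quartiles of −0.30 and 0.44. Over the 4405 shared peaks with a pileup of at least 50 that overlapped a single METTL3-sh peak, it was lower in 43.1%, with a median of 0.10 (0.08 to 0.12). A value at least 2-fold lower was seen in 4 of the 115 neighbours (3.48%) and in 260 of the 4405 (5.90%). These are values of 2 libraries, and whether the conditions differed was not tested.

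The largest such fall was next to chr14:88945187-88946025, a peak with 204 reads and a fold enrichment of 6.16, where the shared peak 175 bp away went from 34.4 with NC-sh to 13.1 with METTL3-sh at 354 and 285 reads. The largest rise was next to chr10:127530352-127530754, a peak with 283 reads and a fold enrichment of 9.36, where the shared peak 274 bp away went from 8.60 to 46.0 at 365 and 354 reads. For the largest rise, pileup of the shared peak was similar, at 119.5 with NC-sh and 128.7 with METTL3-sh. Its local expectation was 13 and 1.82, so the higher fold enrichment went with a lower expectation. For the largest fall too, fold enrichment changed more than reads did. Both examples were chosen after their values were seen.

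Gaps in the peak numbers were also counted. Peaks are numbered along the genome, with no number out of order in either list, but 8336 of the 20588 METTL3-sh numbers are missing. A number is counted as missing around a position if it falls between those of the listed METTL3-sh peaks on either side. What a missing number stood for, and where, is not given in the sources used here. At least 1 number was missing around 493 of the 505 NC-sh-only peaks (97.6%, 95.9 to 98.6%), with a median of 2 missing numbers and at most 12. Exactly 1 was missing around 156 of them. All 223 NC-sh-only peaks with a pileup of at least 100 had a missing number around them (100%, with a lower limit of 98.3%). Among the 1742 unmatched NC-sh peaks with a pileup under 50, no number was missing around 440 (25.3%), against 12 of the 505 (2.38%).

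**Figure D4:**
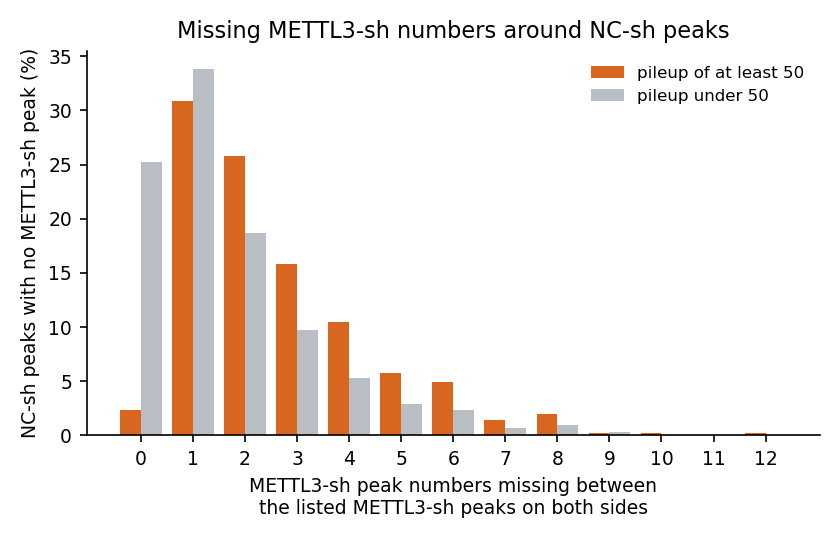
Share of NC-sh peaks without a METTL3-sh peak (y axis, %) by the number of METTL3-sh peak numbers missing between the listed METTL3-sh peaks on both sides (x axis), for the 505 peaks with a pileup of at least 50 (orange) and the 1742 with a pileup under 50 (grey). No number is missing around 2.38% of the former and 25.3% of the latter.

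Long intervals between listed peaks hold more missing numbers, so the share was set beside that of all intervals of similar width. Among all METTL3-sh intervals of up to 10 kb, 453 of 3410 had a missing number (13.3%, 12.2 to 14.5%), whereas 33 of the 34 NC-sh-only peaks in such intervals did (97.1%, 85.1 to 99.5%). In intervals over 10 and up to 50 kb these shares were 32.5% and 98.5% (66 of 67), and over 50 and up to 200 kb 48.5% and 95.3% (162 of 170). In wider intervals they were 59.3% and 99.1% (230 of 232). The intervals used for comparison were not chosen for holding an NC-sh peak, so both shares are given as a description. The comparison shares count intervals, including those that hold NC-sh-only peaks, whereas the other shares count peaks. The widest class had no upper limit, so widths were not matched within it. Of the 505 peaks, 2 without METTL3-sh peaks on both sides on their chromosome were left out. In the opposite direction, 1020 of the 1059 METTL3-sh peaks with a pileup of at least 50 and no NC-sh peak had a missing NC-sh number around them (96.3%). Whether the missing numbers belonged to peaks at the NC-sh-only positions was not tested.

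No METTL3-sh number was missing around 12 NC-sh-only peaks. These had 154 to 266 reads, 207 to 913 bp and fold enrichments of 6.13 to 29.4, and 4 of them reached a fold enrichment of 12. The strongest was chr17:44416861-44417182 with 266 reads and 29.4, between METTL3-sh peaks with consecutive numbers, the nearer of which was 22160 bp away and had 25 reads. The second was chr14:38060552-38060852, with 215 reads and a fold enrichment of 18.8, but a METTL3-sh peak with 216 reads and 13.3 began 131 bp beyond it. The third was chr11:132205138-132206050, the peak farthest from METTL3-sh peaks, and the fourth was chr9:71835972-71836293 with 233 reads, a fold enrichment of 12.9 and 32850 bp to the nearest METTL3-sh peak. The METTL3-sh list held neither a missing number around 3 of these 4 peaks nor a peak closer than 22160 bp.

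Another NC-sh peak of any pileup lay within 5 kb of 145 NC-sh-only peaks (28.7%), and the nearest one was a shared peak for 115 of these. Among the 505 peaks themselves, 7 runs, each of 2 peaks within 5 kb of each other, held 14 peaks. The strongest run was on chromosome 18, where peaks with 654 reads (chr18:24127043-24127500) and 1312 reads (chr18:24127747-24128624) lay 246 bp apart with fold enrichments of 7.91 and 7.295. The nearest METTL3-sh peak was 91259 bp away. Another run, chr14:23302672-23302877 and chr14:23303242-23303590, had 174 and 466 reads and fold enrichments of 7.24 and 8.53, with 41012 bp or more to a METTL3-sh peak. In a run on chromosome 17, chosen like the other runs named here after the values were seen, chr17:40704605-40705405 and chr17:40705586-40706088, the peaks had 251 and 298 reads and were 180 bp apart.

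Across chromosomes the share of well covered NC-sh peaks that had no METTL3-sh peak varied from 6.45% on chromosome 3 (18 of 279, 4.12 to 9.97%) to 16.5% on chromosome 14 (30 of 182, 11.8 to 22.6%). Over all chromosomes it was 10.1%, and the intervals of chromosomes 3 and 14 were the only ones of 23 that did not include this value. These intervals were not adjusted for the number of chromosomes compared, and no difference between chromosomes was tested. The largest numbers were on chromosome 2 (42 of 326 peaks, 12.9%) and chromosome 1 (41 of 443, 9.26%). There was no chromosome with well covered NC-sh peaks that lacked NC-sh-only peaks.

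**Figure D5:**
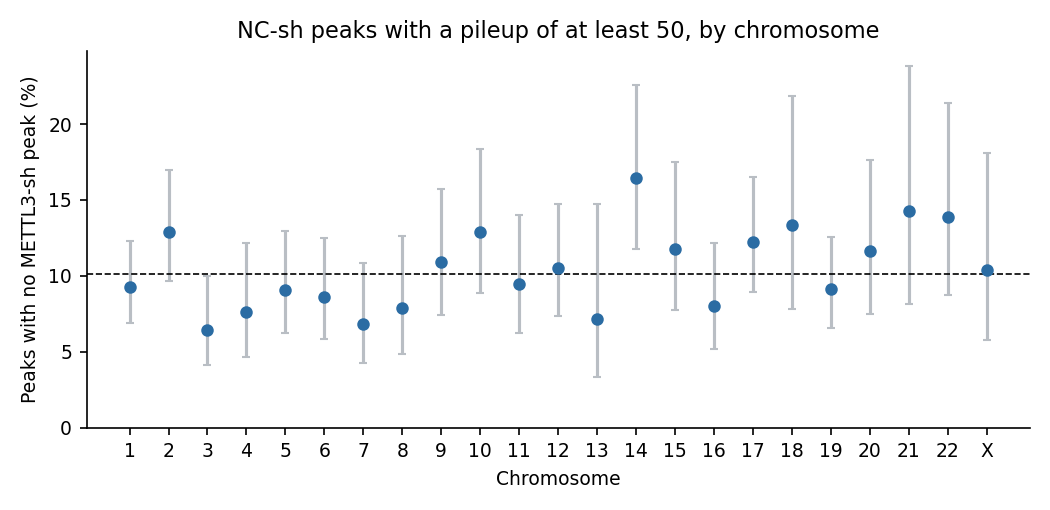
Share of NC-sh peaks with a pileup of at least 50 that had no METTL3-sh peak (y axis, %) for chromosomes 1 to 22 and X (x axis), with points for the share, bars for 95% Wilson intervals and a dashed line at 10.1%, the share over all. Chromosome 14 stands highest at 16.5% and chromosome 3 lowest at 6.45%.

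At the limit on pileup, fold enrichments on both sides overlapped. Just inside, with a pileup of 50.1 and 153 reads, were chr3:46009212-46009959 with a fold enrichment of 9.12, chr21:46893622-46893834 with 12.05 and chr2:27530959-27531275 with 7.76. Just outside, with 49.8 and 152 reads, were chr17:702584-702788 with 6.04, chr1:231501882-231502131 with 7.25 and chr5:125880453-125880800 with 8.46. The peak on chromosome 2 was also the closest of all 505 to a METTL3-sh peak, 127 bp from one with 477 reads.

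Positions are those of the deposited lists, for which the submitters' processing notes name hg19. No annotation or sequence of hg19 was used here. The gene under each peak, its place in the transcript and its GGAC content were therefore not analysed here, and no position was converted from another build.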

How the data were processed

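MeRIP-seq libraries came from H1975 cells carrying NC-sh or METTL3-sh. The submitters' processing notes name bcl2fastq, TopHat2 2.0.13, MACS2 2.1.0.20151222 and hg19. Filters are not given in the sources used here. For each MeRIP library a list of peaks was deposited by the authors. In the deposited lists pileup is a signal in scaled reads, and fold enrichment is the ratio between pileup and local expectation. The −log10 p and −log10 q columns were deposited as written by the caller.

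Reads at the summit were pileup divided by its step, and the expectation was (pileup + 1)/fold enrichment − 1. Overlap was 1 bp or more on the same chromosome. With 1 library per condition no test was made, and no SD exists. Calculations used Python 3.11.15, numpy 2.4.6, pandas 2.3.3, scipy 1.17.1 and matplotlib 3.10.9, and overlap, distance, number and step were tested on simulated data.

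The rule for named peaks took the 10 highest by −log10 q, 5 longest, 5 farthest from METTL3-sh peaks, 5 highest by fold enrichment and 3 on either side of the pileup limit. Other peaks named, beside close METTL3-sh or shared peaks, without missing numbers or in runs, were chosen after their values were seen. The rule's parts on gene names were not applied, since the gene table at hand follows GRCh38.p14. The peaks, lists and rules were chosen with earlier results of these data known.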

Additional observations from a re-analysis of the deposited data

How the results depend on the processing

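Lowering the pileup minimum to 30 gave 867 NC-sh-only peaks, of which 94.6% had a METTL3-sh number missing around them, with a median length of 355 bp. Raising it to 100 gave 223 peaks, with 10.8% having a METTL3-sh peak within 1 kb, 100% having a missing number and a median length of 432 bp. A fold enrichment of at least 7 in addition, chosen after seeing the data, left 326 peaks. A METTL3-sh peak was within 500 bp of 9.70% and within 5 kb of 31.3% of the NC-sh-only peaks. The other settings, a METTL3-sh peak no closer than 200 or 1000 bp, at least 150 reads, and standard chromosomes, left the count between 429 and 523. Alternatives on genes, transcript regions and GGAC were not run, as no hg19 reference was used. No paired analysis was possible because only 1 MeRIP library was listed for either condition. Total depth is unknown, and the fewest reads at a summit of the 505 peaks were 153.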
